A study of Mus musculus with 6 samples.

Results

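The semaphorins, the plexins and the neuropilins are a family of guidance ligands and their receptors, and all 31 mouse genes of the list (20 semaphorins, 9 plexins and 2 neuropilins) were taken by symbol from a table of 25888 genes. Every one of the 31 was found under a single Ensembl gene ID. RNA sequencing was performed on C57BL/6 mouse embryos at embryonic day 9.5, on pooled tissue of the anterior dorsal pericardial wall (aDPW), which holds progenitors of the second heart field, and of the cardiac outflow tract (OFT), which those progenitors build. The 3 mutant libraries (Hand2 cKO) came from Hand2flox/flox; Mef2c-AHF-Cre embryos, in which a Cre driven by an anterior heart field enhancer of Mef2c recombines floxed Hand2, a basic helix-loop-helix transcription factor gene of heart and pharyngeal arches. The 3 control libraries are labelled control only, with alleles not given in the sources used here. Cells outside the Cre lineage, such as neural crest and pharyngeal endoderm, keep their Hand2 alleles, and the number of embryos in a pool was not stated.

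Semaphorins are secreted (class 3), transmembrane (classes 4, 5 and 6) or lipid-anchored (class 7) proteins that repel or attract migrating cells, axons and vessels. Plexins are the receptors that carry the signal into the cell, by way of small GTPases, and neuropilins are coreceptors that most class 3 semaphorins need to reach a class A plexin. In the mouse, Sema3c and Plxnd1 are needed for septation of the outflow tract, into which cardiac neural crest migrates, and neuropilins also bind VEGF ligands on endothelium.

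The levels are FPKM, fragments scaled to gene length and library size, so genes can be compared per length. Hand2 itself had 34.6, 22.2 and 17.9 FPKM in Hand2 cKO libraries 1 to 3, against 116, 64.3 and 81.7 FPKM in control libraries 1 to 3, and the groups did not overlap (two-sided exact permutation p = 0.1, the lowest value possible with 3 libraries a group). Which exons are floxed was not stated, so transcripts of a recombined allele may be counted. The scaling of the deposited values implied 22975221 to 31065422 fragments per library. Markers of heart muscle, endothelium and pharyngeal endoderm were present in all 6 libraries, with the heart muscle marker Nppa as the exception. Nppa had 0.10 to 0.61 FPKM in Hand2 cKO and 2.01 to 4.02 FPKM in controls. Of 8 neural tube markers, Neurog2 (1.75 to 7.11 FPKM) and Tubb3 (3.26 to 9.62 FPKM) were present and the other 6, Sox1 among them (at most 0.02 FPKM), averaged under 1 FPKM. Of 6 macrophage markers, Cd68 (2.92 to 4.47 FPKM) and Pf4 (0.73 to 5.13 FPKM) were present and the other 4, Ptprc among them (at most 0.01 FPKM), averaged under 1 FPKM. The library of control replicate 3 stood apart in yolk sac and liver endoderm transcripts (summed level of 7 markers 583 FPKM, against 1.72 to 5.13 FPKM in the other 5), and the libraries numbered 1 stood apart in both groups on principal component 1, which took up 46.9% of the variance.

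Without a replicate block, none of the 26 members tested passed at a Benjamini-Hochberg adjusted p of 0.05 over all 12650 genes with a mean of at least 1 FPKM (limma on log2(FPKM + 1)), where 0.174% of all genes passed (0.0237% higher and 0.150% lower). Hand2 itself did not pass in this test (adjusted p = 0.109). Before adjustment, 7 members were higher and 2 lower in Hand2 cKO with p below 0.05, against 2.60% and 4.32% of all genes (6.92% in either direction). No label pairs the libraries. Same-numbered libraries of the 2 groups deviated together in these data, so the numbers were taken as pairs, and calls with the block rest on that. Blocking on the number, 6 members passed, Sema3c, Sema3f and Plxnb1 higher and Nrp2, Nrp1 and Plxna4 lower in Hand2 cKO. That is 23.1% of the 26, against 5.12% of all genes tested, or 3 higher against 1.42% and 3 lower against 3.70% of all genes. With array weights in place of the block 3 passed, Sema3c and Sema3f higher and Nrp2 lower, against 4.28% of all genes (1.53% higher and 2.76% lower). Voom on reads recovered from the FPKM called 11 higher and 3 lower with the block, against 4.69% and 4.76% of all genes (9.46% in all). They were the 6 members that passed in the blocked test on FPKM, and further members that were all higher. These further members were Sema3d, Sema4c, Sema5b, Sema6a, Sema6c, Plxna1, Plxna2 and Plxna3. Without the block voom called none, against 0.174% (0.0238% and 0.151%), and had 5 higher and 1 lower before adjustment, against 3.46% and 3.25% (6.71% in all). "Rose" and "fell" below refer to the blocked test on FPKM. In bulk tissue fewer cells of a type and less RNA per cell cannot be told apart.

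The 5 members under the filter were Sema3e, Sema4a, Sema4f, Plxnb3 and Plxnc1, with means of 0.40, 0.69, 0.36, 0.01 and 0.91 FPKM over the 6 libraries, and the tested members nearest above it were Sema3d at 1.47 and Sema5b at 1.69 FPKM. The median log2 fold change of the 26 members tested was 0.20, against -0.01 for all genes tested. Levels of 20 tested members averaged higher and of 6 averaged lower in Hand2 cKO. The same 20 had a positive log2 fold change, against 47.9% of all genes tested. With equal sums, 21 of 26 were positive against 63.8% of all genes, and by voom without the block 21 of 26 against 59.8%. In same-numbered pairs, 17 were higher in all 3 and 4 lower in all 3, against 20.5% and 25.1% of all genes tested (45.6% in either direction). For 8 members every Hand2 cKO library lay above every control library, and for 3 every one lay below, where over all genes tested these shares were 5.44% and 6.85% (12.3% in all).

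**Figure D1:**
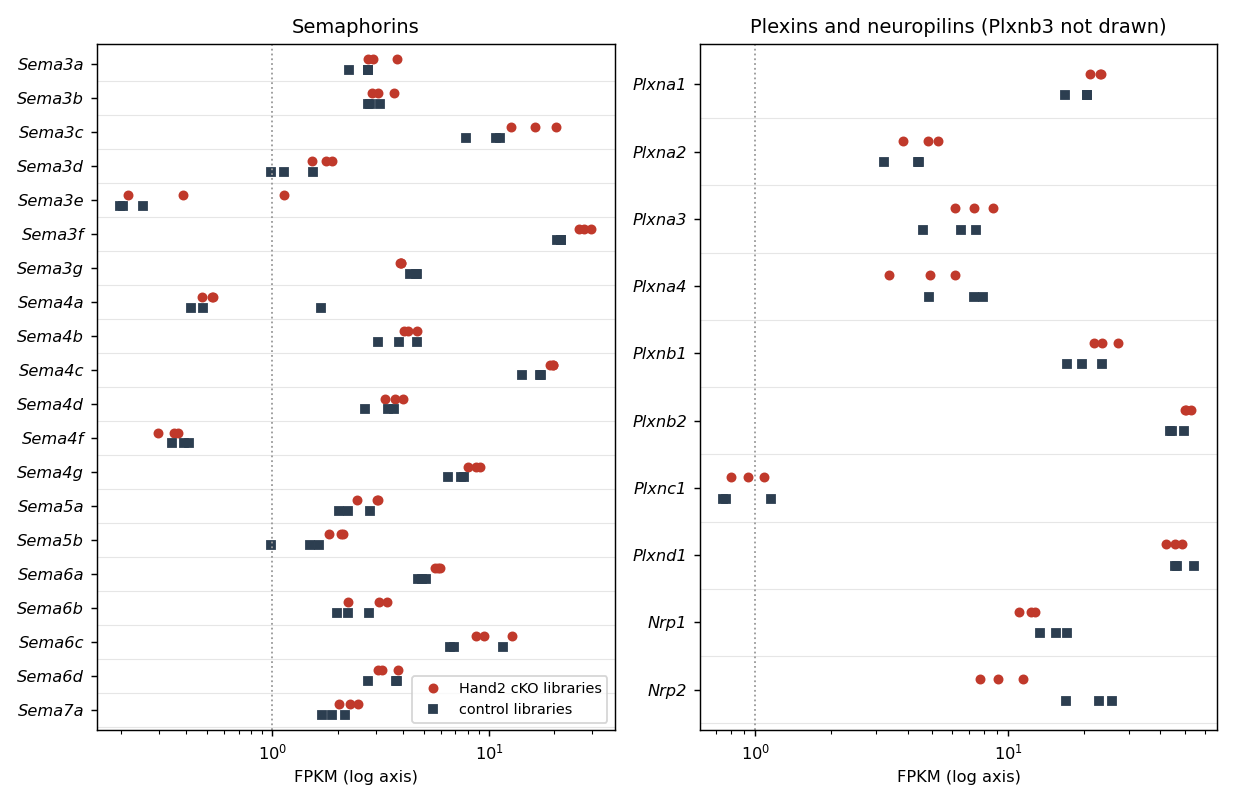
FPKM (log axis) of each semaphorin (left) and of each plexin and neuropilin (right) in the 3 Hand2 cKO libraries (red circles, upper row of each gene) and the 3 control libraries (dark squares, lower row), with a dotted line at 1 FPKM. Plxnb3, near 0, is not drawn, and for Nrp2 the Hand2 cKO libraries at 7.73 to 11.4 FPKM lie left of the control libraries at 16.9 to 25.7 FPKM.

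Promoter sequences from RefSeq (GRCm38.p6, from 250 bases before to 50 after the annotated start) were matched for 26 of the 31 members, among them 4 of the 6 that passed with the block. These 4 are shown because the genes passed in embryos in which a factor of the E-box binding kind was lowered. Capitals mark every E-box of the letters CANNTG, the core that basic helix-loop-helix dimers bind, which reads the same on both strands.
Nrp2, chr1:62703067-62703366, plus strand: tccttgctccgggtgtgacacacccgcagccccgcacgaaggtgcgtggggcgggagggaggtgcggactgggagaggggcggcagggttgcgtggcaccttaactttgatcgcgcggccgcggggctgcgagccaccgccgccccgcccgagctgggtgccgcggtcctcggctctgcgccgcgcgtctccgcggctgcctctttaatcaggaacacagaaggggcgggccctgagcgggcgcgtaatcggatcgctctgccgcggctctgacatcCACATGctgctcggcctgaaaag
Nrp1, chr8:128358823-128359122, plus strand: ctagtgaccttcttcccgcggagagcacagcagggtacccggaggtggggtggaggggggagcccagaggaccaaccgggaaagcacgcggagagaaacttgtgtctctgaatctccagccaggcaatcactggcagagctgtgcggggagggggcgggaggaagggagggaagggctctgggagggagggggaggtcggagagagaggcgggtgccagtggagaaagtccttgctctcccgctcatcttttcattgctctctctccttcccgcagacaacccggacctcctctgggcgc
Sema3c, chr5:17574566-17574865, plus strand: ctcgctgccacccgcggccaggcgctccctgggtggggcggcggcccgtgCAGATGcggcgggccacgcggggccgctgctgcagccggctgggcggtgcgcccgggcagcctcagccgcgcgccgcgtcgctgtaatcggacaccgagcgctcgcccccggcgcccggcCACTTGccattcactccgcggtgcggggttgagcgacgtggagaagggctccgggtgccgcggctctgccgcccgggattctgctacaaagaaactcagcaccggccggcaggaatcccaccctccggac
Plxnb1, chr9:109095186-109095485, plus strand: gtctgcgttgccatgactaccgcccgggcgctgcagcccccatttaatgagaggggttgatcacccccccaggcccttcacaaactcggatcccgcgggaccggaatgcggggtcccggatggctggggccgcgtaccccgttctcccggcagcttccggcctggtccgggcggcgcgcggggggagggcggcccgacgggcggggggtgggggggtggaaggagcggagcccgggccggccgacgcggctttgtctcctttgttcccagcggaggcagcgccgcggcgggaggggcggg
The Nrp2 window held 1 E-box, CACATG, whose first base lies 28 bases into the transcript. The Sema3c window held CAGATG, at position -200 from the start site, and CACTTG, at position -80. The Nrp1 and Plxnb1 windows held no match to CANNTG. Of all 32851 promoter windows of this length, 72.3% held CANNTG and 17.2% held CAGATG or its reverse complement CATCTG, which contain it. Among the 37 windows of the members, 21 held the first and 2 held the second, in Sema3c and in an alternative start of Sema4a. A match is a description of the letters and not a bound site.

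The neuropilins fell together. Nrp2 encodes the coreceptor of Sema3f and, with Nrp1, of Sema3c, and is annotated at chr1:62703285-62818695, plus strand (GRCm38). It had 7.73, 9.12 and 11.4 FPKM in Hand2 cKO libraries 1 to 3, against 16.9, 22.8 and 25.7 FPKM in control libraries 1 to 3. All 3 Hand2 cKO libraries lay below all 3 controls, at 45.8%, 39.9% and 44.6% of the control of the same number. The mean was 9.43 ± 1.88 FPKM in Hand2 cKO and 21.8 ± 4.499 FPKM in controls (SD, n = 3 each), from 2103 to 3707 reads per Hand2 cKO library and 4649 to 8400 per control library. The log2 fold change was -1.12 (SE 0.19 without the block and 0.06 with it), with an adjusted p of 0.124 without the block and 0.00204 with it (range over 18 other settings, the block among them, 4.54e-05 to 0.547). By p Nrp2 stood at place 11 of the 12650 genes in the blocked test and at place 50 in the unblocked one. Nrp2 passed, too, in fits lacking both libraries numbered 1, 2 or 3 (adjusted p = 0.00361, 0.0164 and 0.00476, each with the block).

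Nrp1 encodes the coreceptor of Sema3a and of VEGF-A and is annotated at chr8:128358604-128503363, plus strand. Its level was 11.1, 12.8 and 12.3 FPKM in Hand2 cKO libraries 1 to 3, against 13.4, 15.4 and 17.0 FPKM in control libraries 1 to 3. The groups did not overlap, and the Hand2 cKO libraries were at 82.6%, 83.2% and 72.0% of the control of the same number, nearer to it than those of Nrp2. Its log2 fold change came to -0.31 (SE 0.11 without the block and 0.06 with it; adjusted p = 0.581 and 0.0470, range 0.0276 to 1.00). Nrp1 did not pass in any fit lacking both libraries of 1 number (adjusted p = 0.1001, 0.0854 and 0.188). Of the summed FPKM of both neuropilins, Nrp2 made up 43.7% ± 3.998 in Hand2 cKO and 58.5% ± 2.40 in controls (SD, n = 3 each), and the values of the groups do not overlap.

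Marker levels of several cell types were set beside those of the neuropilins, and only the heart muscle sums did not overlap between the groups. All 13 endothelial markers averaged lower in Hand2 cKO, with sums at 78.3%, 85.6% and 78.9% of the control of the same number. The sums were 211 to 246 FPKM in Hand2 cKO and 246 to 315 FPKM in controls. These ranges overlap, with 246.4 FPKM in Hand2 cKO replicate 1 above 245.9 FPKM in control replicate 2. Cdh5, which encodes VE-cadherin, had 29.3 ± 1.72 FPKM in Hand2 cKO and 40.4 ± 0.93 FPKM in controls (SD, n = 3 each). Its groups did not overlap, while those of Kdr did, at 10.6 ± 1.09 FPKM in Hand2 cKO and 11.1 ± 1.41 FPKM in controls. All 10 heart muscle markers averaged lower too, with sums at 62.6%, 67.2% and 63.9% of the control of the same number. The 8 neural crest markers, of which Foxd3 was at most 0.19 FPKM, summed to 25.9 to 34.4 FPKM in Hand2 cKO and 24.4 to 35.7 FPKM in controls, and 5 averaged higher and 3 lower. All 8 red cell markers averaged lower, with overlapping sums of 3483 to 5075 FPKM in Hand2 cKO and 3339 to 7957 FPKM in controls, at 63.8%, 104% and 70.3% of the control of the same number. Of 8 neural tube markers 6 averaged higher, but only Neurog2 and Tubb3 averaged at least 1 FPKM. Neurog2 had 4.90 ± 1.93 FPKM in Hand2 cKO and 2.89 ± 1.30 FPKM in controls. Tubb3 was near equal, at 6.13 ± 2.73 and 6.06 ± 3.25 FPKM (SD, n = 3 each). The sums of the list overlap, with 8.87 to 17.1 FPKM in Hand2 cKO and 6.64 to 14.6 FPKM in controls. They were at 117%, 150% and 116% of the control of the same number. Pharyngeal endoderm sums were at 75.2%, 109% and 83.6% of the control of the same number, and macrophage sums at 141%, 92.9% and 71.5%. The part of cell makeup in these results was not tested.

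Among the plexins, Plxna4 fell and Plxnb1 rose. Plxna4 encodes a class A plexin that signals with Nrp1 for Sema3a and binds Sema6a directly, and is annotated at chr6:32144268-32588192, minus strand. It had 3.36, 4.90 and 6.19 FPKM in Hand2 cKO libraries 1 to 3, against 4.87, 7.30 and 7.99 FPKM in control libraries 1 to 3. The groups overlap, and libraries numbered 1 were lowest in both, but each Hand2 cKO library was below the control of its number (69.1%, 67.1% and 77.4%). Plxna4 had a log2 fold change of -0.41 (SE 0.22 without the block and 0.06 with it; adjusted p = 0.847 and 0.0223, range 0.00467 to 1.00). The call was lost without both libraries numbered 1 or 2 (adjusted p = 0.0763 and 0.0714) and held without those numbered 3 (0.0475). An antisense gene, Plxna4os3, shares 110 of its 14103 exonic bases.

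The other class A plexins went the other way on average. Plxna1, the most abundant of them, had 21.0, 23.4 and 23.2 FPKM in Hand2 cKO libraries 1 to 3, against 16.8, 20.5 and 20.5 FPKM in control libraries 1 to 3, and the groups did not overlap. Its log2 fold change of 0.22 missed the threshold with the block (SE 0.05, adjusted p = 0.0807; range 0.0279 to 1.00). Of its exonic bases 10.7% overlap the antisense gene Gm26811, which averaged 0.188 FPKM. Plxna2, a receptor of Sema6a that also serves Sema3c, averaged 4.65 ± 0.74 FPKM in Hand2 cKO and 4.04 ± 0.69 FPKM in controls, and Plxna3, the partner of Nrp2 for Sema3f, 7.40 ± 1.30 and 6.19 ± 1.46 FPKM (SD, n = 3 each). Neither passed in either test on FPKM (adjusted p = 0.168 and 0.0953 with the block), though both were higher in all 3 pairs. Both passed by voom with the block (adjusted p = 0.0460 and 0.0392). The summed level of the 4 class A genes was 34.4, 41.8 and 42.0 FPKM in Hand2 cKO libraries 1 to 3 and 29.5, 39.7 and 39.4 FPKM in control libraries 1 to 3, and the groups overlap.

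Class B plexins are receptors of class 4 semaphorins. Plxnb1, the receptor of Sema4d, is annotated at chr9:109095389-109119917, plus strand, and had 21.9, 27.2 and 23.5 FPKM in Hand2 cKO libraries 1 to 3, against 17.1, 23.5 and 19.5 FPKM in control libraries 1 to 3. Each Hand2 cKO library was above the control of its number, while the groups as a whole overlap. Plxnb1 had a log2 fold change of 0.27 (SE 0.14 without the block and 0.05 with it; adjusted p = 0.831 and 0.0474, range 0.0127 to 1.00), and the call was lost without both libraries of any 1 number (0.165, 0.0748 and 0.182). An antisense gene, Gm7628, shares 257 of its 9592 exonic bases. Plxnb2, the most abundant plexin in Hand2 cKO, had 50.3, 53.0 and 50.5 FPKM in Hand2 cKO libraries 1 to 3, against 43.5, 44.6 and 49.5 FPKM in control libraries 1 to 3, without overlap, and did not pass (adjusted p = 0.200 with the block). Plxnb3 was all but absent, with 0 to 4 reads per library.

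Plxnd1, the plexin of endothelium and the direct receptor of Sema3e, was the most abundant plexin in controls. It had 45.8, 42.2 and 48.8 FPKM in Hand2 cKO libraries 1 to 3, against 45.6, 46.6 and 54.3 FPKM in control libraries 1 to 3, with overlapping groups. Its log2 fold change of -0.10 did not pass (SE 0.06 and adjusted p = 0.365 with the block), and it averaged 93.3% of controls where all 13 endothelial markers averaged lower. Plxnc1, the receptor of Sema7a, had 0.80 to 1.08 FPKM in Hand2 cKO and 0.75 to 1.15 FPKM in controls.

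**Figure D2:**
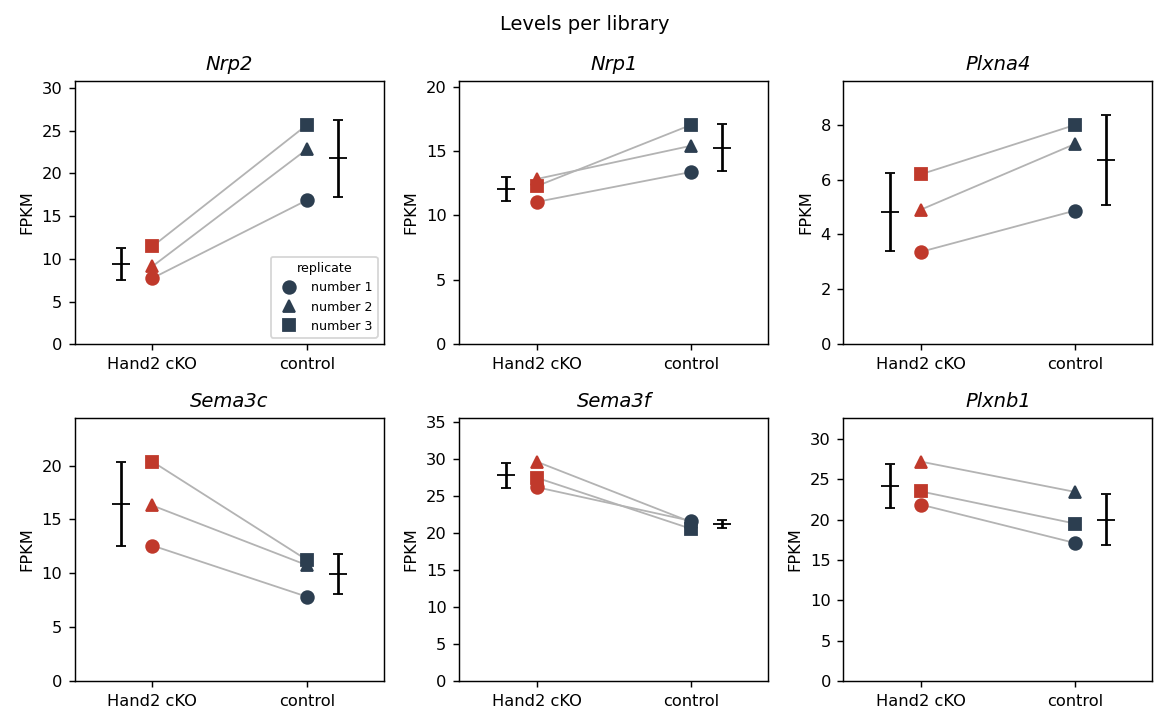
FPKM of the 6 members that passed with the replicate block, in Hand2 cKO libraries (red, left) and control libraries (dark, right), with lines joining libraries of the same number and bars showing the mean and SD of 3. Every line of Nrp2, Nrp1 and Plxna4 is lower at its Hand2 cKO end, and every line of Sema3c, Sema3f and Plxnb1 is higher there.

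Secreted class 3 semaphorins, the ligands of the neuropilins, summed to 56.7 ± 5.24 FPKM in Hand2 cKO and 42.6 ± 1.66 FPKM in controls (SD, n = 3 each), and Sema3c and Sema3f made up most of that difference. Sema3c is annotated at chr5:17574281-17730268, plus strand. It had 12.6, 16.3 and 20.4 FPKM in Hand2 cKO libraries 1 to 3, against 7.82, 10.7 and 11.2 FPKM in control libraries 1 to 3. The lowest Hand2 cKO library lay above the highest control, and the libraries were at 161%, 152% and 181% of the control of the same number. Sema3c had a log2 fold change of 0.66 (SE 0.19 without the block and 0.06 with it; adjusted p = 0.440 and 0.00821, range 0.000456 to 1.00), from 1299 to 3975 reads per library. It also passed without both libraries numbered 1, 2 or 3 (0.0207, 0.0291 and 0.0189).

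Sema3f, a ligand that acts through Nrp2 and Plxna3, was the most abundant semaphorin in both groups. It is annotated at chr9:107681500-107710475, minus strand, and had 26.1, 29.6 and 27.4 FPKM in Hand2 cKO libraries 1 to 3, against 21.6, 21.4 and 20.5 FPKM in control libraries 1 to 3. The groups are set apart by more than the spread within either. Sema3f had a log2 fold change of 0.37 (SE 0.09 without the block and 0.06 with it; adjusted p = 0.315 and 0.0266, range 0.00236 to 1.00). The call held without both libraries numbered 1 (0.0370) and was lost without those numbered 2 or 3 (0.0736 and 0.110).

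Other class 3 ligands did not pass in either test on FPKM. Sema3d, needed for normal pulmonary veins in the mouse, averaged 1.72 ± 0.18 FPKM in Hand2 cKO and 1.22 ± 0.29 FPKM in controls, and Sema3a, the classic repellent of axons, 3.15 ± 0.53 and 2.61 ± 0.29 FPKM (SD, n = 3 each). Both were higher in all 3 pairs, with overlapping groups. Sema3g was the only class 3 gene of the 6 tested with a negative log2 fold change, -0.17. This endothelial ligand had 3.94, 3.92 and 3.89 FPKM in Hand2 cKO libraries 1 to 3, against 4.58, 4.32 and 4.64 FPKM in control libraries 1 to 3, without overlap (adjusted p = 0.169 with the block), beside the lower endothelial markers given above. Sema3b averaged 3.20 ± 0.40 FPKM in Hand2 cKO and 2.92 ± 0.20 FPKM in controls. Sema3e was low except in Hand2 cKO replicate 2, at 0.39, 1.14 and 0.22 FPKM in Hand2 cKO libraries 1 to 3 and 0.20, 0.25 and 0.20 FPKM in control libraries 1 to 3.

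Class 4 semaphorins, membrane ligands of class B plexins, held no member that passed on FPKM in either test. Sema4c, a ligand of Plxnb2 and the second most abundant semaphorin, had 19.2, 19.8 and 19.7 FPKM in Hand2 cKO libraries 1 to 3, against 14.2, 17.3 and 17.3 FPKM in control libraries 1 to 3, without overlap (log2 fold change 0.26, adjusted p = 0.0871 with the block). Of its exonic bases 7.27% overlap D430040D24Rik on the other strand, which averaged 0.804 FPKM. Sema4g, another ligand of Plxnb2, had 8.72, 9.13 and 8.03 FPKM in Hand2 cKO libraries 1 to 3, against 6.44, 7.45 and 7.69 FPKM in control libraries 1 to 3, also without overlap (adjusted p = 0.140 with the block). Sema4d, the ligand of Plxnb1, and Sema4b averaged 3.67 and 4.30 FPKM in Hand2 cKO and 3.25 and 3.87 FPKM in controls, with overlapping groups. Sema4a was at 0.53, 0.53 and 0.47 FPKM in Hand2 cKO libraries 1 to 3 and at 0.48, 0.42 and 1.68 FPKM in control libraries 1 to 3. The high value lies in the library that also holds yolk sac and liver endoderm transcripts, and their part in it was not tested. Sema4f stayed between 0.30 and 0.41 FPKM in all 6 libraries.

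Classes 5, 6 and 7 held no member that passed on FPKM in either test. Sema5b, a transmembrane ligand with thrombospondin repeats, had 2.08, 2.11 and 1.82 FPKM in Hand2 cKO libraries 1 to 3, against 1.499, 1.64 and 0.987 FPKM in control libraries 1 to 3, and its relative Sema5a averaged 2.86 and 2.36 FPKM. Sema5b did not overlap between the groups (adjusted p = 0.0902 with the block). Sema6a, a ligand of Plxna2 and Plxna4, had 5.81, 5.63 and 5.95 FPKM in Hand2 cKO libraries 1 to 3, against 4.70, 5.14 and 4.90 FPKM in control libraries 1 to 3, also without overlap (adjusted p = 0.118 with the block). Sema6c followed the replicate number more than the group, with 12.8, 9.504 and 8.70 FPKM in Hand2 cKO libraries 1 to 3 and 11.6, 6.61 and 6.92 FPKM in control libraries 1 to 3. Sema6b averaged 2.90 and 2.33 FPKM in Hand2 cKO and controls, Sema6d 3.37 and 3.42 FPKM, and Sema7a, which also binds integrin beta 1, 2.27 and 1.92 FPKM. The log2 fold change of Sema6d, -0.01, turned positive in 8 of 18 other settings.

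**Figure D3:**
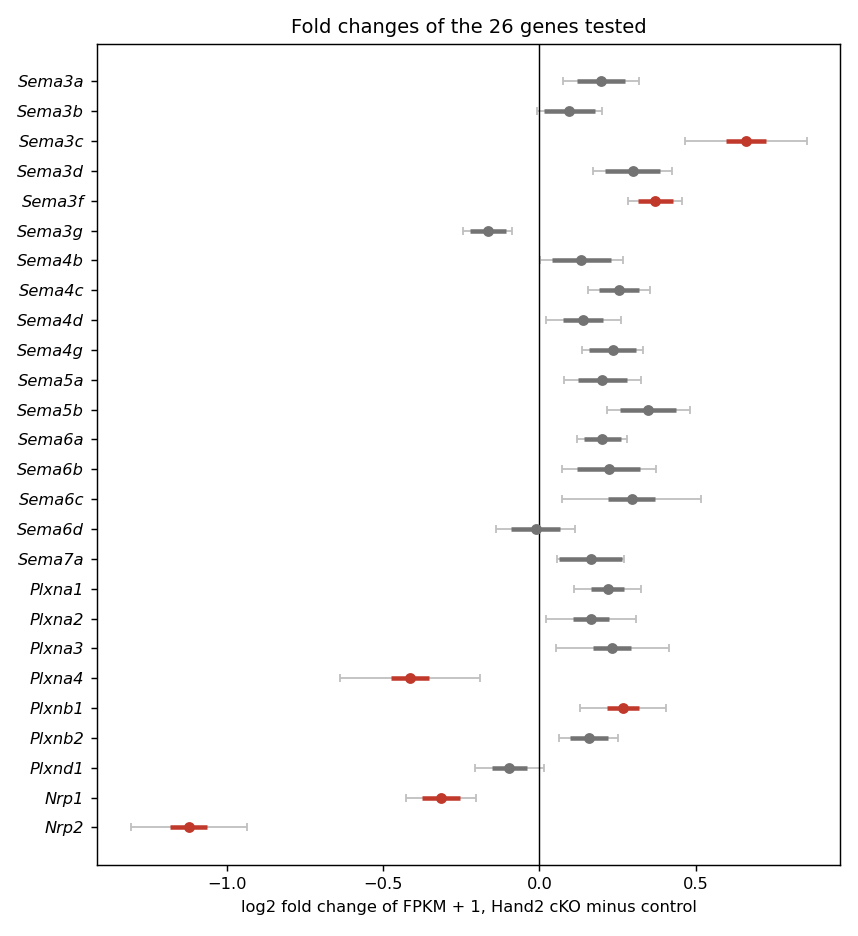
Log2 fold change of FPKM + 1 (Hand2 cKO minus control) of the 26 members tested, with the SE without a block (thin light bars) and after blocking on replicate number (thick bars), and in red the 6 that passed with the block. Nrp2 at -1.12 and Sema3c at 0.66 lie farthest from 0 in each direction, and most semaphorins lie between 0 and 0.4.

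The levels of a ligand and of its receptors were then set side by side in each library, with the pairs taken from textbook knowledge of which plexin or neuropilin each semaphorin binds. The ratios reuse the levels above and carry no test of their own. In Hand2 cKO libraries 1 to 3 the FPKM of Sema3c was 1.63, 1.79 and 1.78 times that of Nrp2, against 0.463, 0.471 and 0.437 times in control libraries 1 to 3. Relative to its mean this ratio varied less within each group than either level did, and the groups lie far apart. For Sema3f over Nrp2 the ratio was 3.38, 3.25 and 2.40 in Hand2 cKO and 1.28, 0.939 and 0.799 in controls. Sema3c over Nrp1 was 1.14, 1.27 and 1.66 in Hand2 cKO and 0.584, 0.697 and 0.659 in controls, and Sema3c over Plxnd1 was 0.275, 0.386 and 0.417 in Hand2 cKO and 0.171, 0.231 and 0.207 in controls. Ligands that did not pass gave separated ratios over Nrp2 as well. Sema3g over Nrp2 was 0.510, 0.430 and 0.340 in Hand2 cKO and 0.272, 0.189 and 0.181 in controls, although the level of Sema3g was lower in Hand2 cKO, and Sema3b over Nrp2 was 0.398, 0.3996 and 0.251 in Hand2 cKO and 0.187, 0.124 and 0.108 in controls. The separation over Nrp2 therefore held for each of the 4 ligands set against it and was not particular to Sema3c and Sema3f.

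Several other ratios overlap between the groups. Sema3f over its plexin, Plxna3, was 4.26, 3.39 and 3.74 in Hand2 cKO libraries 1 to 3 and 4.69, 2.86 and 3.16 in control libraries 1 to 3, although Sema3f itself rose. For Sema4c over Plxnb2 the values were 0.381, 0.373 and 0.389 in Hand2 cKO and 0.327, 0.388 and 0.348 in controls, and for Sema4d over Plxnb1 0.151, 0.148 and 0.156 in Hand2 cKO and 0.157, 0.155 and 0.176 in controls. Sema6a over Plxna2 was 1.52, 1.17 and 1.13 in Hand2 cKO and 1.45, 1.16 and 1.10 in controls. With Plxna4, which fell, as the receptor, Sema3a gave 0.824, 0.597 and 0.606 in Hand2 cKO and 0.466, 0.381 and 0.347 in controls, without overlap. The other ligands set against Plxna4 did overlap, Sema6a at 1.73, 1.15 and 0.961 in Hand2 cKO and 0.965, 0.704 and 0.614 in controls, and Sema6b at 1.01, 0.632 and 0.360 in Hand2 cKO and 0.573, 0.272 and 0.278 in controls.

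**Figure D4:**
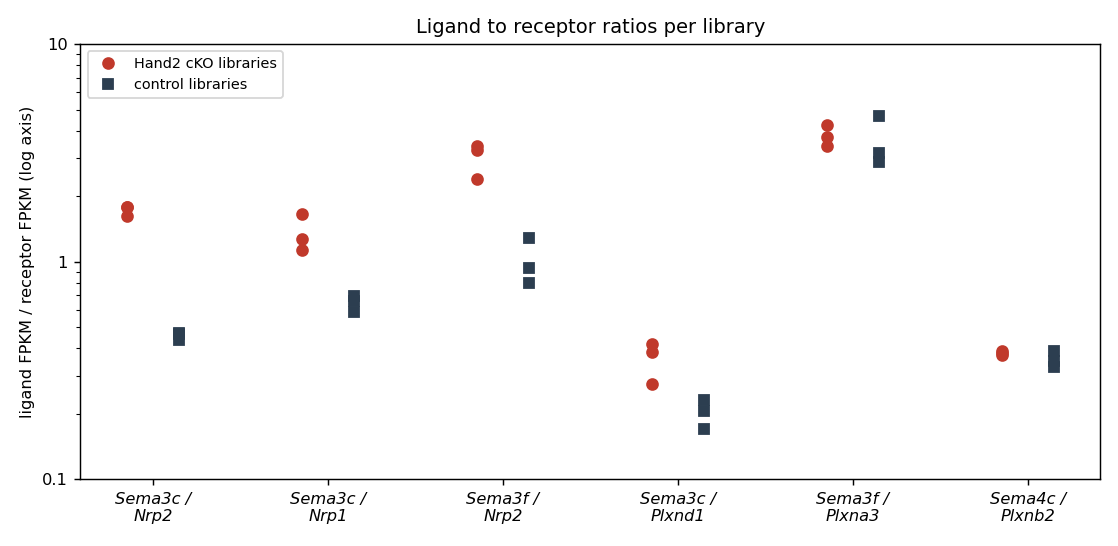
FPKM of a ligand divided by FPKM of a receptor (log axis) in the 3 Hand2 cKO libraries (red circles, left of each pair) and the 3 control libraries (dark squares, right) for 6 ligand and receptor pairs. Sema3c over Nrp2 lies at 1.63 to 1.79 in Hand2 cKO and 0.437 to 0.471 in controls, while Sema3f over Plxna3 and Sema4c over Plxnb2 overlap.

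Genes that act with or downstream of these receptors were followed as a list of 42, of which 38 were tested. The unblocked test called none of them, against 0.174% of all genes. Before adjustment, p was below 0.05 for 1 higher and 3 lower, against 2.60% and 4.32% of all genes. In the blocked test 1 rose and 3 fell, against 1.42% and 3.70% of all genes. That is 10.5% of the 38 against 5.12% of all genes in either direction. Rnd2 encodes a small GTPase of the Rnd family, which binds the inner domain of plexins. It had 32.5, 20.4 and 27.4 FPKM in Hand2 cKO libraries 1 to 3, against 59.6, 35.2 and 46.9 FPKM in control libraries 1 to 3, and the groups did not overlap. Rnd2 had a log2 fold change of -0.79 (SE 0.05 with the block; adjusted p = 0.431 without the block and 0.00253 with it, range 0.000164 to 1.00), and Rnd2 also passed without both libraries of any 1 number (0.00641, 0.0180 and 0.00859). Of its 1990 exonic bases, 226 overlap Vat1 on the other strand, which averaged 26.3 FPKM in Hand2 cKO and 33.2 FPKM in controls, and the strand setting of the counting was not stated.

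Furin and Itga1 also fell, and Dpysl4 rose. Furin encodes the protease that cleaves class 3 semaphorins to their active forms, and had 16.6, 14.96 and 16.7 FPKM in Hand2 cKO libraries 1 to 3 against 20.8, 18.4 and 24.5 FPKM in control libraries 1 to 3 (log2 fold change -0.37, adjusted p = 0.0361 with the block, range 0.0129 to 1.00). Itga1, the integrin alpha 1 that pairs with integrin beta 1 as a receptor of Sema7a, averaged 2.30 ± 0.83 FPKM in Hand2 cKO and 3.55 ± 0.67 FPKM in controls (SD, n = 3 each; adjusted p = 0.0470 with the block, range 0.0182 to 1.00). Dpysl4, of the collapsin response mediator family that acts downstream of Sema3a in axons, had 3.47, 2.66 and 2.34 FPKM in Hand2 cKO libraries 1 to 3 against 2.198, 1.66 and 1.35 FPKM in control libraries 1 to 3 (log2 fold change 0.48, adjusted p = 0.0216 with the block, range 0.00194 to 1.00). Of these 3, only Itga1 passed in any fit that left out both libraries of 1 number, without those numbered 3 (0.0433). The other 34 tested genes of the list passed in neither test, among them the plexin targets and effectors Rac1, Rras, Farp1, Mical3 and Fyn.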

How the data were processed

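The authors deposited 1 table of FPKM values, from 3 Hand2 cKO and 3 control libraries grouped by their titles. Tools named in the submitters' processing notes are STAR 2.5.1b, Cufflinks 2.2.1 and bcl2fastq 2.18, and the build named there is mm8, with annotation, strand setting and filters not given in the sources used here. Coordinates came from GENCODE M21 (GRCm38). FPKM times its exonic length gave whole reads (within 0.02, in all 6 libraries) for 79.5% of 25759 genes, so these models match the table better than an mm8 label implies. For another 4365 genes, Nrp1 among them, the shortest length giving whole reads was used, and their true reads may be a multiple.

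Groups were compared by limma 3.58.1 (R 4.3.3), two-sided, on log2(FPKM + 1) with a mean-variance trend, over 12650 genes averaging at least 1 FPKM, with Benjamini-Hochberg adjustment at 0.05. This scale understates changes of low genes. Over all genes 3 were higher and 19 lower in Hand2 cKO (4 and 9 after scaling to equal sums), and 180 and 468 in the blocked fit. Same-numbered libraries deviated together from their group means (correlations over genes 0.728, 0.443 and 0.444, all over 0.1), so the numbers were taken as pairs; no label states this pairing, and Hand2 cKO replicate 3 also had 0.306 with control replicate 2. No label says that libraries were separate litters, so p-values measure the spread between libraries, which may be technical. Members, lists and tests were chosen with earlier results of these data known. All members are named, with Hand2 and pathway genes past the threshold in either test; markers and other pathway genes named beside them were picked with their values in view. The fits were tested on simulated reads built with deviations shared by replicate number, so that test cannot check the pairing. Alternatives were the block, another pseudocount (0.1), other filters, 2 scalings, array weights, left-out libraries and voom on recovered reads, the last added after seeing the data.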

Additional observations from a re-analysis of the deposited data

How the results depend on the processing

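Over 18 other settings, the log2 fold changes of the 26 members kept their direction in all but Sema6d. That gene moved to 0.031 with equal sums, 0.072 with the block and without both libraries numbered 2, 0.029 and 0.017 by voom without and with the block, and to -0.12 to 0.046 without single libraries. With the block, which takes the numbers as pairs, 6 members passed, against 5.12% of all genes. Fits lacking both libraries numbered 1, 2 or 3 called 3, 2 and 3 members, against 2.7%, 2.2% and 2.3% of all genes. Nrp2 passed in all 3 of these fits, Sema3c in all 3, Sema3f in the first and Plxna4 in the last. Array weights without the block called 3 (Nrp2, Sema3c and Sema3f), against 4.28% of all genes. Voom on recovered reads, added after seeing the data, called 14 with the block (11 higher and 3 lower), against 9.46%. Without the block voom called 0, against 0.174%. Before adjustment it had 5 higher and 1 lower with p below 0.05, against 3.46% and 3.25% of all genes. The other unblocked settings, leaving out single libraries included (0 to 0), called no member, with 2 to 7 higher and 1 to 3 lower before adjustment. With no filter, 6 of 31 members were higher and 2 lower at p below 0.05, against 835 higher and 932 lower of 25888 genes. In the rest of these settings 176 to 519 higher and 288 to 703 lower of 12634 to 14463 genes had p below 0.05. Of the pathway list the block called 4, array weights 4 and voom with the block 6, against 5.12%, 4.28% and 9.46% of all genes. The fits without both libraries numbered 1, 2 or 3 called 1, 1 and 2, against 2.7%, 2.2% and 2.3%. Leaving out single libraries called 0 to 0 of the pathway list. Over all genes, 22 passed, 648 with the block, 542 with array weights, 1193 by voom with the block (592 higher and 601 lower), 13 with equal sums (4 higher and 9 lower), 8 with no filter, and 340, 283 and 290 with the block and without both libraries numbered 1, 2 or 3. Without single libraries 0 to 3 passed. Hand2 had a log2 fold change of -1.78 and did not pass without the block (adjusted p = 0.109). It passed in 7 of 18 other settings (range of adjusted p 5.40e-05 to 0.547). These were the block (-1.78), equal sums (-1.72), array weights (-1.76) and voom with the block (-1.77). The others were the blocked fits without both libraries numbered 1, 2 or 3 (-1.81, -1.92 and -1.60). Without single libraries Hand2 had -2.03 to -1.55 and did not pass. The cause of these changes was not tested, and the precision is limited by 3 libraries a group.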

Other observations

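Sema3d, Sema3a, Sema3e and Sema3c lie on the same chromosome, 5, with starts at 12383385, 13125414, 14025276 and 17574281 on the plus strand (GRCm38). All 4 were higher in all 3 same-numbered pairs, at 122% to 155% of the control for Sema3d, 105% to 135% for Sema3a, 106% to 449% for Sema3e, which was not tested, and 152% to 181% for Sema3c. Over all genes tested 20.5% were higher in all 3 pairs and 25.1% were lower. Of the 26 members tested 17 were higher in all 3 pairs, so this was not particular to the genes on chromosome 5. Sema3e had 55 reads in Hand2 cKO replicate 3 against 51 in control replicate 3. On chromosome 9, Sema3b and Sema3f lie from 107597674 and 107681500 on the minus strand, and Sema3f was higher in all 3 pairs while Sema3b was at 97.8%, 128% and 103%. These genes were chosen for this description after their values were seen.

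Among the semaphorins, Sema3f, Sema4c, Sema3c, Sema6c and Sema4g held places 1 to 5 by mean share of the summed FPKM in both groups. Plxna3 and Plxna4 held places 5 and 6 among the plexins in Hand2 cKO and places 6 and 5 in controls. Plxnb2 and Plxnd1 changed places at the top of the plexins, at 51.3 ± 1.48 and 45.6 ± 3.30 FPKM in Hand2 cKO and 45.9 ± 3.20 and 48.9 ± 4.76 FPKM in controls (SD, n = 3 each). Nrp1 was the more abundant neuropilin in Hand2 cKO, at 12.1 ± 0.91 against 9.43 ± 1.88 FPKM for Nrp2, and Nrp2 in controls, at 21.8 ± 4.499 against 15.3 ± 1.83 FPKM for Nrp1.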
